A study of Bos taurus with 30 samples.

Results

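The bovine miRNAs with the highest numbers, from miR-11900 upwards, were examined in calf testis. The deposited table has 97 rows with such a number, and 81 of them had a value above 0 in at least 1 of 30 libraries, out of 838 miRNAs above 0 and 1030 rows in all. Members were chosen by number and by a value above 0 in any library, and diet had no part in the rule. The testes came from 30 Holstein-Friesian bull calves sampled at 12 weeks of age, with 1 small RNA library per calf. From 2 weeks of age, 15 calves were fed the High diet, with a daily 10 L holding 1.5 kg of milk replacer and free access to concentrate, meant to give a gain of 1.0 kg a day. For the Moderate diet, 15 calves were fed a daily 4 L holding 0.5 kg of milk replacer, with concentrate held to 0.5 kg, meant to give a gain of 0.5 kg a day. All calves thus received both feeds, and the diets differed in amount. Each statement on diet rests on the diet characteristic of the labels. For 18 of the 30 libraries the title names the opposite diet, and in the other 12 title and characteristic agree (6 per diet).

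miRNAs are short RNAs that guide Argonaute proteins to partly complementary sites, mostly in the untranslated ends of mRNAs, and so lower translation and stability of those mRNAs. They are cut from hairpin precursors, which often lie in introns of protein-coding genes and are then made from the transcript of the host gene. Numbers are given in order of registration, so high numbers mark late entries from deep sequencing of a species rather than a family with a common function. A letter after the number, as in miR-11986b, marks closely related mature sequences. No targets or functions are assumed here for any of the members. The mature sequences are not used here.

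Values are given in CPM with library sizes adjusted by TMM, a scaling by typical ratios between libraries. Whole reads were recovered from the steps of these values. The libraries held 6.0003 to 19.98 M reads (M, 1e6), with 24 libraries at up to 10.3 M and 6 libraries (4 High, 2 Moderate) at 16.7 M or more. The gonadal miR-202 was present in all libraries, at 1055 to 3282. Of 25 marker miRNAs of cell types, 21 were tested by diet. Of these, miR-34b and miR-34c of male germ cells rose under the High diet and no other passed. miR-449a, also a germ cell marker, had means of 11.7 under High and 11.9 under Moderate. In this limma fit 4.91% of all 387 tested miRNAs passed, and 0 passed without High replicate 5. The striated muscle miRNAs miR-1 and miR-206 were at 0, and the liver miRNA miR-122 stayed at or under 2.84. Moderate replicate 5 stands apart in this series, where miR-10b took 84.8% of the reads. A single read is worth 0.476 there, against 0.0460 to 0.164 in the other libraries. Testis tissue is a mixture of cells, and fewer cells of a type cannot be told apart from less RNA per cell.

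The members were rare. Together they held 0.00303% of the reads of a library on average, or 9296 reads over the 30 libraries. Their summed value was 29.8 ± 3.75 (SD, n = 30), and the median of their mean values was 0.0670. The highest mean was that of miR-11971, at 5.05, which ranked 276 among the 1030 rows. Only 10 members had a mean value of at least 1, and 46 had a mean under 0.1. The 10 most abundant members held 69.9% of all member reads, and the top 3, miR-11971, miR-11977 and miR-11991, held 36.4%. By comparison, the median of the mean values was 0.306 in the 141 miRNAs of the ruminant miR-2284 and miR-2285 family. It was 0.0620 in the 151 older bovine entries from miR-2286 to miR-2490 and 6.82 in the 465 remaining miRNAs. These differences in level between groups of miRNAs are descriptions and were not tested.

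Most members were seen in only some of the calves. Of the 81, 13 had a value above 0 in all 30 libraries, 16 in 20 to 29, 21 in 10 to 19, 25 in 2 to 9 and 6 in 1 library. Detection in all libraries was thus found for 16.05% of the members, close to the 17.2% of the older bovine entries, against 35.5% of the miR-2284 and miR-2285 family and 69.0% of the remaining miRNAs. TMM-scaled library size differs from depth, and Moderate replicate 5, with 8.88 M reads, was the smallest library on that scale. If reads were spread over libraries by TMM-scaled size alone, counting error would give each member a number of libraries with at least 1 read. For 77 of the 81 members the observed number was within 3 libraries of it. That number is worked out from each member's own reads. Members with very few reads, or with enough reads for all libraries, therefore lie near it in advance. The same count is not given here for the other miRNAs. miR-12001 (16 libraries, 20.1 by counting) and miR-12049 (16, 21.6 by counting) were more than 3 below, miR-11974 (28, 24.4 by counting) was more than 3 above, and miR-11979 lay far below. The other 16 rows of the number range were at 0 in every library. Where no read is seen, up to 3 reads remain possible, which corresponds to a value of 0.138 to 1.43 depending on the library and covers counting error only.

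**Figure D1:**
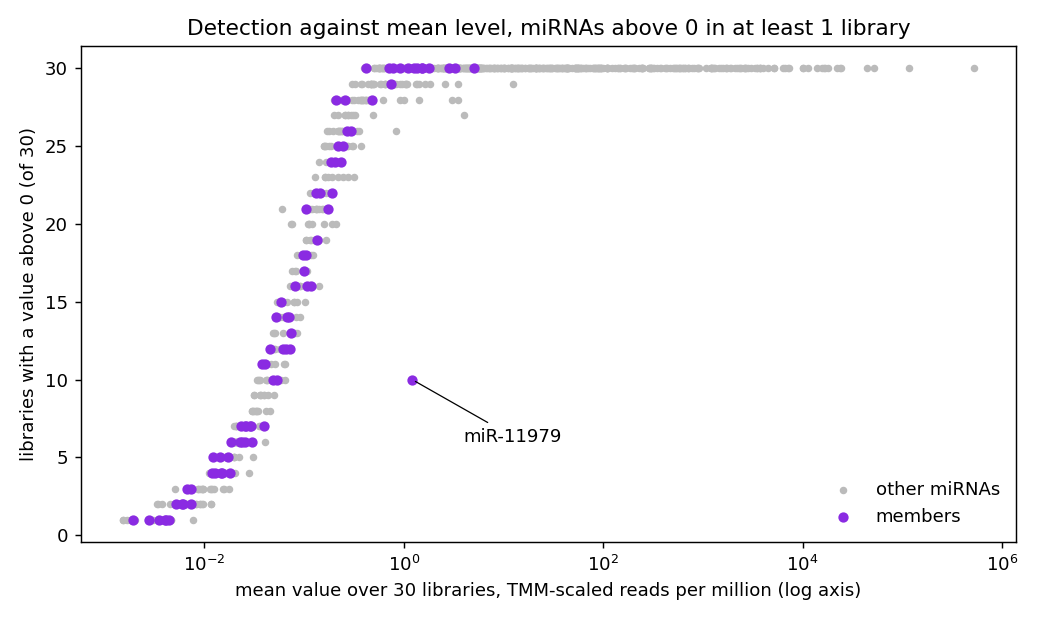
Mean value over 30 libraries (x axis, TMM-scaled CPM, log axis) against the number of libraries with a value above 0 (y axis) for 838 miRNAs, with the 81 members in purple and the others in grey. Members lie on the same band as the other low miRNAs, except miR-11979, with a mean of 1.22 and a value above 0 in 10 libraries.

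More members were seen in the deeper libraries. The 24 libraries of up to 10.3 M reads had 25 to 46 members above 0, and the 6 deeper libraries had 44 to 54. Over all libraries of a diet the range was 31 to 54 (median 41) under High and 25 to 52 (median 37) under Moderate. The lowest, at 25, was Moderate replicate 5. Among libraries of up to 10.3 M reads the medians were 38 under High (n = 11) and 37 under Moderate without that library (n = 12), with ranges of 31 to 42 and 31 to 46. The summed value of the members was 29.9 ± 3.13 under High and 29.6 ± 4.399 under Moderate (SD, n = 15 each), and 28.7 ± 2.96 under Moderate without replicate 5. In CPM without TMM scaling the sums were 32.3 ± 4.59, 28.3 ± 6.56 and 29.6 ± 4.29 in the same order. On that scale the median log2 fold change of all tested miRNAs was 0.21. The sums were not tested by diet.

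**Figure D2:**
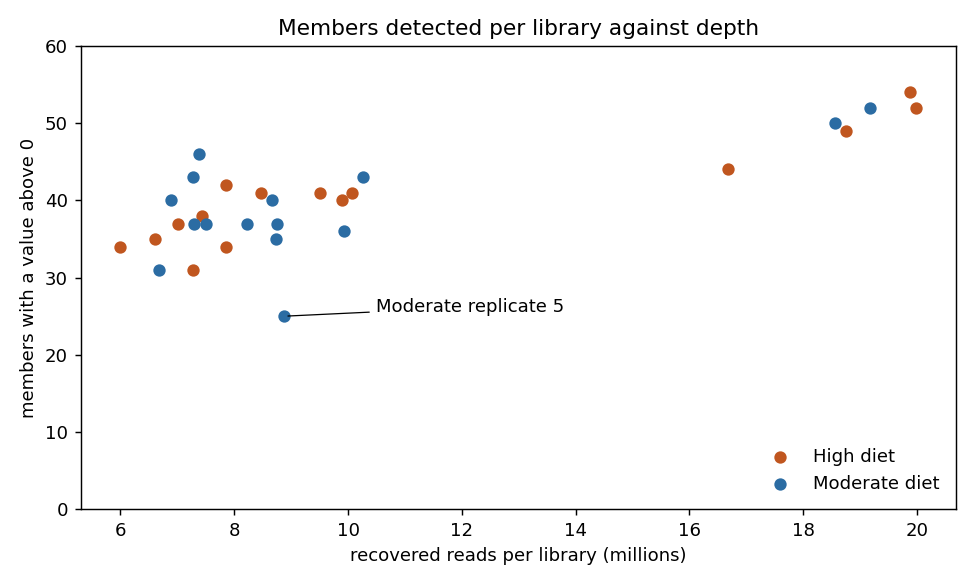
Recovered reads per library in M (x axis) against the number of members with a value above 0 (y axis), 1 point per library, coloured by diet. The 6 deep libraries show 44 to 54 members and the others 25 to 46, with Moderate replicate 5 lowest.

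miR-11979 was present or absent from one calf to the next. It had values of 2.73 to 5.47, from 26 to 73 reads, in 9 libraries, a single read in High replicate 5 (0.0924) and no read in the other 20. In those 20 libraries a count of 0 allows a value of up to 0.138 to 1.43, below the lowest of the 9. Depth did not separate them: the 9 libraries had 7.02 to 19.2 M reads and the 20 had 6.0003 to 19.98 M. Under the High diet replicates 2, 8, 9 and 15 stood at 4.53, 5.02, 3.03 and 5.47. Under the Moderate diet replicates 2, 9, 10, 14 and 15 stood at 3.37, 4.37, 3.31, 4.55 and 2.73. Both diets had 10 libraries at 0. The scatter of its reads was 31.1 times that of counting error (a ratio of 1 means counting error alone), where the median over the 81 members was 1.15. In all such ratios here, counting error was worked out from TMM-scaled library sizes.

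By counting error alone, reads of this number would have been seen in 29.9 of 30 libraries. Of the 838 miRNAs above 0, miR-11979 was the 1 that reached a value of 1 in 5 or more libraries and was at 0 in 15 or more, a criterion chosen after its values were seen. In RefSeq's gene table for ARS-UCD2.0, its gene lies between genes of the major histocompatibility complex (MHC) class I region of cattle. The next gene after it in order is BOLA, a class I heavy chain that presents peptides to T cells, and JSP.1 and BOLA-NC1, also of class I, lie before it. With a value of 1 or more in 4 High and 5 Moderate libraries, it did not enter the fit by diet.

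**Figure D3:**
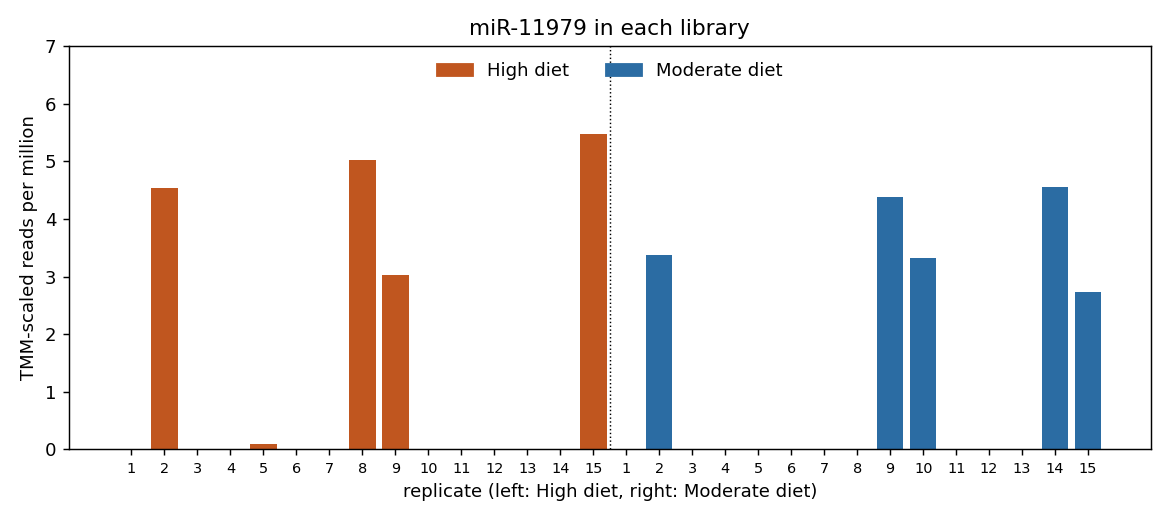
Value of miR-11979 (y axis, TMM-scaled CPM) in each of 30 libraries, by replicate and diet, 1 bar per library. Bars stand at 2.73 to 5.47 in 4 High and 5 Moderate libraries, at 0.0924 in High replicate 5 and at 0 in the other 20.

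The diet comparison by level covered 9 members, those that reached a value of 1 in 15 or more libraries, within a limma fit of 387 miRNAs on log2(value + 0.5). Of these 9, miR-11995 rose under the High diet and 8 did not pass an adjusted p of 0.05. Over all 387 miRNAs, 19 passed (4.91%), of which 9 were higher under High (2.33%), so that 1 of 9 members is not set apart from that background. The median log2 fold change was 0.06 over the 9 members and 0.03 over all tested miRNAs, and 6 of 9 members against 218 of 387 miRNAs had a positive sign. At an unadjusted p under 0.05 there were 3 of 9 members (miR-11995, miR-11982 and miR-11989) and 82 of 387 miRNAs (21.2%). The other 72 members were too low for this fit and are described by detection.

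miR-11995 ranged from 0.916 to 2.63 under High (median 1.54, n = 15) and from 0.416 to 2.63 under Moderate (median 0.839, n = 15). Every one of the 15 High libraries exceeded the Moderate median, and 14 of 15 Moderate libraries were under the High median. The ranges overlapped, since Moderate replicate 6, with 16 reads and a value of 2.63, stood well above the next highest Moderate library at 1.39. The means were 1.57 ± 0.503 and 0.933 ± 0.558 (SD). On log2(value + 0.5) the log2 fold change was 0.57 (standard error 0.15, 95% confidence interval 0.27 to 0.87), with an adjusted p of 0.0260 in limma. This is 1.49-fold in value + 0.5, which understates the fold change of the value itself. These levels rest on few reads, 8 to 35 per High library and 1 to 19 per Moderate library. The scatter of its reads over all libraries was 2.58 times that of counting error.

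On the recovered reads, edgeR gave miR-11995 a log2 fold change of 0.74 (adjusted p = 0.0247, in a fit that called 36 of 378 miRNAs, 9.52%, and 2.65% as higher under High) and DESeq2 one of 0.77 (adjusted p = 0.00781, with 46 of 838 called, 5.49%, and 2.15% as higher under High). DESeq2 gave no adjusted p to 65 of the 81 members, which are among these 838 and could not be called. Its shares of 838 are therefore lower than shares of the miRNAs with an adjusted p, whose number is not given here. Without Moderate replicate 5 the limma value was 0.54 (adjusted p = 0.0145, with 45 of 385 called, 11.7%, and 4.94% as higher under High), and without Moderate replicate 6 it was 0.66 (adjusted p = 0.00509). miR-11995 passed the filter mainly through the High diet, with 13 High and 4 Moderate libraries at a value of at least 1. With the filter lowered to 5 libraries it still passed (adjusted p = 0.0284, in a fit that called 4.02%, and 1.89% as higher under High). The 13 High libraries alone meet this lower filter too, so its entry still rests on the High diet. miR-11995 also passed with a pseudocount of 2 (0.0382, 5.43% called and 2.58% higher), with upper-quartile scaling (0.0269, 5.41% and 3.35%) and with log10 reads as a covariate (0.0336, 4.39% and 1.81%). With diet taken from the characteristic, the call was lost in 6 settings, while the log2 fold change stayed at 0.54 to 0.75. These were the fits without High replicate 5 (0.54, adjusted p = 0.0520), with all 838 miRNAs in limma (0.57, 0.0619) or edgeR (0.75, 0.0780) and with library totals alone (0.68, 0.0740). The others were the 24 libraries under 12 M reads (0.59, 0.0872, with 0.779% of miRNAs called and 0.260% higher) and the 12 libraries with agreeing labels (0.70, 0.352). With the diet of the titles its log2 fold change was -0.01 (adjusted p = 0.987 in limma).

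Split by depth or by label group, miR-11995 had the higher median under High in each part. The parts come from the same libraries in which it was called, so this is a description and no separate support. Among the 11 High and 13 Moderate libraries under 12 M reads the medians were 1.54 and 0.736, and in the 6 deeper libraries the 4 High values, from 1.15 to 1.89, lay above the 2 Moderate values, 0.839 and 0.969. Where titles and characteristic give the same diet the medians were 2.05 and 0.876 (n = 6 each), and where they conflict 1.26 and 0.736 (n = 9 each, grouped by the characteristic). Beside this, the 3 male germ cell markers (miR-34b, miR-34c and miR-449a) summed to 89.3 to 265 under High and to 21.9 to 185 under Moderate, with 2 of 3 past the threshold and none at 0. Their part in the difference of miR-11995 was not tested.

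In the gene table MIR11995 lies within the long non-coding RNA gene LOC101907203, between SNRPN and UBE3A. SNRPN encodes a small ribonucleoprotein subunit and UBE3A a ubiquitin ligase. In mammals this interval belongs to an imprinted region, named in humans for the Prader-Willi and Angelman syndromes, whose small nucleolar RNAs are made from the paternal chromosome. The table places 34 small nucleolar RNA genes and MIR11995 as the 1 miRNA gene wholly between SNRPN and UBE3A. Whether miR-11995 is imprinted in cattle is not given by these data.

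miR-11982 and miR-11989 were next in the order of p and did not pass. miR-11982, whose gene lies in LYST, a regulator of lysosome traffic, ranged from 0.466 to 2.23 under High (median 1.33) and from 0.394 to 1.98 under Moderate (median 0.832). Its log2 fold change was 0.37 (95% confidence interval 0.07 to 0.67, adjusted p = 0.120 in limma, 0.189 in DESeq2), and 12 of 15 High libraries lay above the Moderate median. It had also entered the fit mainly through the High diet, with 12 High and 3 Moderate libraries at a value of at least 1. miR-11989, whose gene lies in TM9SF1, a membrane protein gene, ranged from 1.17 to 2.41 under High (median 2.01) and from 0.476 to 3.02 under Moderate (median 1.47). The log2 fold change of miR-11989 was 0.30 (0.02 to 0.57, adjusted p = 0.183 in limma), and 0.22 without Moderate replicate 5, which held its lowest value. In both, the ranges of the diets overlapped, and for miR-11989 the High range lay wholly within the Moderate range.

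The most abundant members did not pass the test. miR-11971, whose gene lies in MEGF11, ranged from 2.96 to 6.96 under High (median 4.34) and from 2.71 to 19.03 under Moderate (median 4.53). The value of 19.03, from 40 reads, was that of Moderate replicate 5, and the other 29 libraries lay at 2.71 to 6.96. In CPM without TMM scaling, that library stood at 4.504, within the 2.62 to 8.01 of the others. The log2 fold change was -0.17 (95% confidence interval -0.51 to 0.17, adjusted p = 0.594 in limma) and -0.04 without that library, and the scatter over counting error fell from 5.43 to 2.31. These ratios use TMM-scaled library sizes.

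miR-11977 had its lowest value in Moderate replicate 5. Its gene overlaps no other gene and neighbours LOC525820. It ranged from 2.01 to 4.59 under High (median 3.32) and from 1.90 to 5.66 under Moderate (median 3.003), where the lowest value, from 4 reads, was that of replicate 5. In CPM without TMM scaling that library was at 0.450, against 1.83 to 5.66 in the others. The log2 fold change was -0.01 (-0.28 to 0.26, adjusted p = 0.965 in limma). miR-11991, whose gene lies in the oxysterol-binding protein gene OSBPL9, ranged from 1.72 to 3.98 under High (median 2.87) and from 1.47 to 4.41 under Moderate (median 2.89). Its log2 fold change was 0.04 (-0.21 to 0.29, adjusted p = 0.872). miR-11992, in the splicing factor gene RBM22, ranged from 0.437 to 2.33 under High (median 1.56) and from 0.788 to 2.17 under Moderate (median 1.44), with a log2 fold change of 0.06 (-0.21 to 0.32, adjusted p = 0.829).

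**Figure D4:**
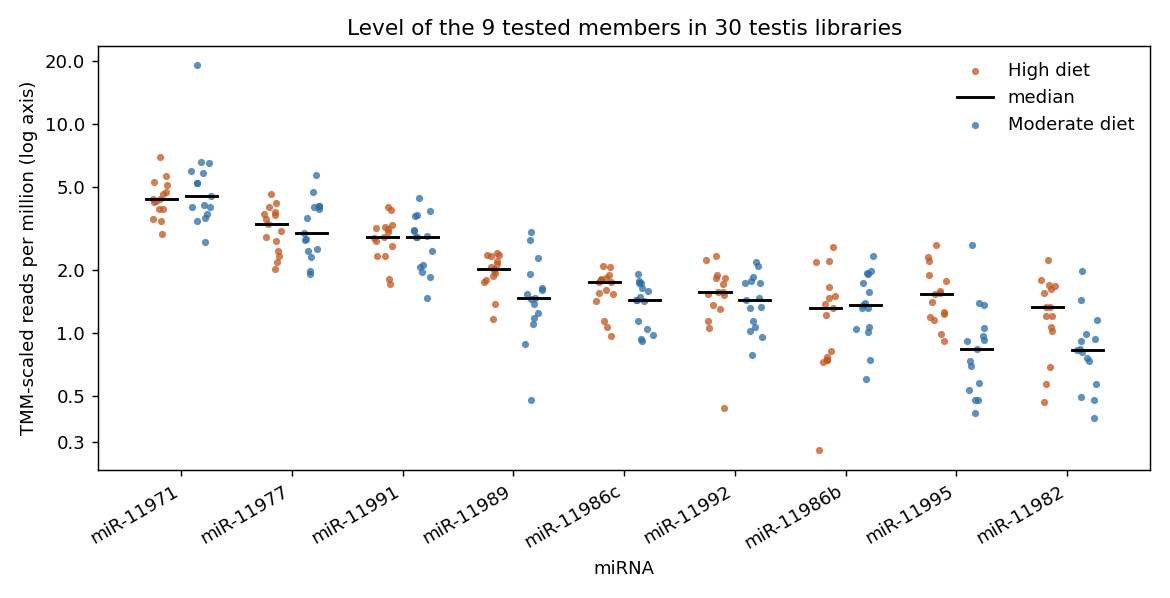
Value (y axis, TMM-scaled CPM, log axis) of the 9 tested members in each library, 15 per diet, with black lines at the medians. The single point of miR-11971 near 19.03 is Moderate replicate 5, and all 15 High values of miR-11995 lie above its Moderate median of 0.839.

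The 3 miR-11986 miRNAs differed in level and in scatter. miR-11986 had 1 read in all, in Moderate replicate 13. miR-11986b, whose gene lies in OCLN, the gene of the tight junction protein occludin, ranged from 0.275 to 2.57 under High (median 1.31) and from 0.599 to 2.33 under Moderate (median 1.36). miR-11986c, in the long non-coding RNA gene LOC101903165, ranged from 0.961 to 2.08 under High (median 1.75) and from 0.914 to 1.92 under Moderate (median 1.44). Although their means were close, at 1.36 and 1.51, the scatter of miR-11986b was 2.59 times that of counting error and that of miR-11986c 0.761 times, so that the latter varied between calves no more than counting gives. Their log2 fold changes by diet were -0.14 (95% confidence interval -0.48 to 0.21, adjusted p = 0.691) and 0.15 (-0.06 to 0.35, adjusted p = 0.415 in limma). Pearson's r between the 2 on the log2 scale was -0.31 over the 30 libraries.

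**Figure D5:**
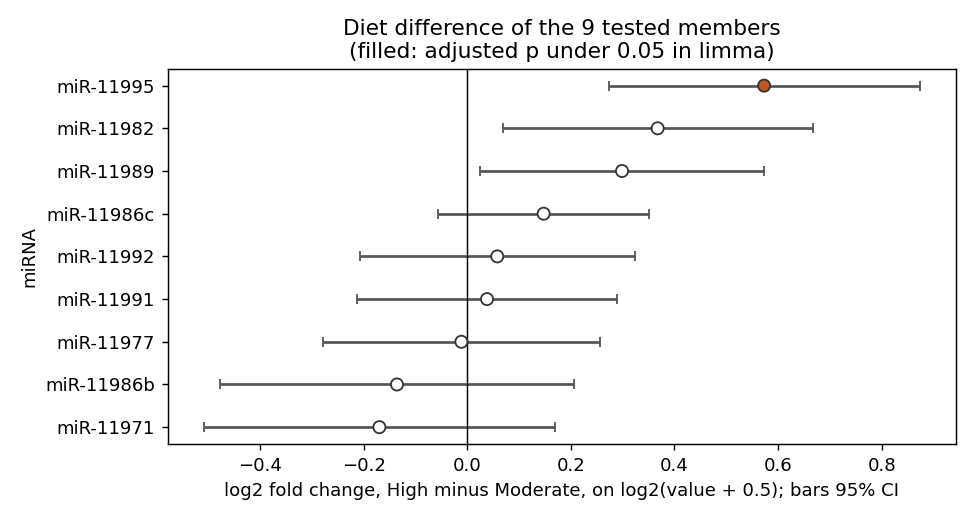
Log2 fold change by diet (x axis, High minus Moderate, on log2(value + 0.5)) of the 9 tested members, with 95% confidence intervals. miR-11995, at 0.57, is filled as the 1 with an adjusted p under 0.05. The intervals of miR-11982 and miR-11989 also exclude 0 before adjustment.

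Below the filter, 4 members had a value above 0 in all 30 libraries. miR-11990, in the gene of the RNA-binding protein RBMS3, was at 0.804 ± 0.280 under High and 1.03 ± 0.455 under Moderate (SD, n = 15 each), with its highest value, 2.38 from 5 reads, in Moderate replicate 5. Without TMM scaling this library was at 0.563 CPM, within the 0.285 to 1.66 of the others. miR-12044, in the transcription factor gene ELF1, was at 0.733 ± 0.329 and 0.836 ± 0.318. miR-11973, in the ion exchanger gene SLC24A3, was at 0.634 ± 0.234 and 0.776 ± 0.350. miR-11998, in ZEB1, a transcription factor gene of epithelial to mesenchymal change, was at 0.414 ± 0.240 and 0.419 ± 0.229. In each of these the difference between diets was smaller than 1 SD.

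Members in 20 to 29 libraries had means of 0.105 to 0.737. The highest was miR-12006, in 29 libraries, at 0.863 ± 0.338 under High and 0.611 ± 0.371 under Moderate. For this member 12 of 15 High libraries lay above the Moderate median, and with the filter lowered to 5 libraries it did not pass (log2 fold change 0.32, adjusted p = 0.199 in limma). The others were miR-11984, in the nucleolar protein gene NOM1, miR-12003, miR-11974, in the SKI proto-oncogene, miR-12014, in the anaphase-promoting complex gene ANAPC2, miR-12030, miR-12034, miR-12036, miR-11976, miR-11975, miR-12041, miR-12005, miR-11987, miR-11993, miR-11988 and miR-11999. The gene of miR-12036 lies in SPRY1, an inhibitor of growth factor signalling. That of miR-12041 lies in the RNA methyltransferase gene METTL16, and that of miR-11999 in BTK, a kinase of B cells. miR-11988 had its gene next to FMR1, the fragile X gene, and its highest value was again that of Moderate replicate 5.

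miR-11975 and miR-11976 were listed in the same 24 libraries and followed each other, with a Pearson's r of 0.99 on the log2 scale over the 30 libraries. The next pair of members in 10 or more libraries reached 0.77, and the median over 1225 pairs was -0.01. miR-11976 held whole reads, 73 in all. miR-11975 held 64 reads, in steps of 1/3 read, and was the 1 member with fractions of reads. The 2 are listed in different host genes, MIA3 and PATZ1. The sources used here do not say how reads that match several miRNAs were divided, so both rows are uncertain as separate measurements.

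Members in 10 to 19 libraries besides miR-11979 were miR-12008, miR-12024, miR-12059, miR-11978, miR-11985, miR-12001, miR-12049, miR-12043, miR-11994, miR-12023, miR-12053, miR-11980, miR-12000, miR-12038, miR-12046, miR-12057, miR-11972, miR-12051, miR-11997 and miR-12058. Several have genes within well-known host genes: miR-12008 in RNF2, a polycomb ubiquitin ligase gene, miR-12053 in IRS1, which relays insulin signals, and miR-11972 in BIRC6, an inhibitor of apoptosis. Apart from miR-11979 they had 10 to 43 reads each over the 30 libraries. None of them passed by diet in limma or edgeR on all 838 miRNAs, where 0 of the 838 passed. DESeq2 gave them no adjusted p, so these fits show nothing particular to these members. The 31 members in fewer than 10 libraries had 1 to 12 reads each in all, and no value above 0.535, which miR-12004 reached in Moderate replicate 14. The gene of miR-12004 lies in SELENOP, which encodes a selenium transport protein.

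Detection by diet was compared for the 68 members above 0 in some but not all libraries, within Fisher's exact test on 428 such miRNAs. None of the 68 members passed, nor any of the 428 miRNAs (0.00%). At an unadjusted p under 0.05 there were 0 members and 7 miRNAs (1.64%). A miRNA above 0 in few libraries, or in nearly all, cannot reach this p at any split between the diets. For such members the test could not show a difference. The members farthest apart were miR-12038, in 3 High and 9 Moderate libraries (exact p = 0.0604, adjusted p = 1), and miR-12023, in 10 High and 4 Moderate libraries (exact p = 0.0656, adjusted p = 1). miR-12030 was found in all 15 High libraries and 11 Moderate ones (exact p = 0.0996). With 26 libraries above 0 this is its most uneven split possible, so Fisher's exact test could give it no lower p. Of the 81 members, 34 were found in more High libraries, 27 in more Moderate libraries and 20 in as many of each. The same count over all miRNAs is not given here. Depth also differed, with 4 High and 2 Moderate libraries of at least 12 M reads, and Moderate replicate 5 showed the fewest members. These counts are thus not read as a difference by diet. In edgeR on the reads of all 838 miRNAs, 0 of 81 members and 0 of the 838 passed. There, 3 members had an unadjusted p under 0.05, against 116 of the 838 (13.8%). The 3 were miR-11995, miR-11982 and miR-12013, the last named after its values were seen.

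The gene table held a gene for 80 of the 81 members. Of these, 61 (76.3%) lay within the span of a protein-coding gene, against 83.1% of the older bovine entries, 70.7% of the miR-2284 and miR-2285 family and 57.2% of the remaining miRNAs with a gene. Another miRNA gene within 10 kb was found for 4 of the 80 (5%), and for miR-12005, 1 of these 4, it was the other copy of its own gene. The share was 9.46% in the older bovine entries, 6.77% in the miR-2284 and miR-2285 family and 49.3% in the remaining miRNAs, many of which come from clusters. The table gives no strand, so sense and antisense overlap cannot be told apart. These shares are descriptions without a test. Among tested miRNAs the SD over libraries on the log2(value + 0.5) scale had a median of 0.39 for the 9 members and 0.34 for all 387.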

How the data were processed

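Small RNA from 30 calf testes (15 per diet) was sequenced from Illumina TruSeq small RNA libraries, per the labels' protocols. Tools named are FastQC 0.11.8, cutadapt 2.6, R 3.4 and edgeR 3.5, per the submitters' processing notes. The sources used here name no aligner, miRNA reference or genome build. The deposited values are a normalized signal, CPM with TMM-scaled library sizes, as worked out from the values. Dividing each library by the value of 1 read gave whole reads for 95.3% of 18379 values above 0, within 0.02 read. The other values belong to 58 miRNAs and were rounded for count tests. Recovered depth was 6.0003 to 19.98 M reads (M, 1e6).

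Diet was compared with limma 3.58.1 (mean-variance trend, R 4.3.3) on log2(value + 0.5), for 387 miRNAs that reached a value of 1 in 15 or more libraries, two-sided, with Benjamini-Hochberg adjustment over all 387 and a threshold of 0.05. Such fold changes understate those of low miRNAs. edgeR 4.0.16 (quasi-likelihood) and DESeq2 1.42.0 were run on recovered reads as alternatives. Detection was compared by two-sided Fisher's exact test, adjusted over 428 miRNAs. The tests were checked on simulated data. Replicate numbers follow accession order.

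The members, the lists of markers and the tests were chosen with earlier results of these data known. Every tested member is named with its values, as are members above 0 in at least 10 libraries. The assembly of the gene table may differ from that of the authors, so it served for names and neighbours, and no coordinates are printed.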

Additional observations from a re-analysis of the deposited data

How the results depend on the processing

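The count of miRNAs past the threshold (19 of 387) moved to 36 in edgeR, 46 in DESeq2, 3 in the libraries under 12 M reads and 0 with no filter, with edgeR on all 838 miRNAs, with library totals alone, with the diet of the titles and in the 12 libraries with agreeing labels, and to between 0 (without High replicate 5) and 45 (without Moderate replicate 5) when each library was left out. At an unadjusted p under 0.05 these fits had 104, 116, 61, 11, 43 and, without High replicate 5, 75 miRNAs. The 1 member called, miR-11995, became 0 with no filter, edgeR on all miRNAs (an alternative chosen after seeing the data), library totals, titles, agreeing labels and libraries under 12 M reads, and 0 to 1 with 1 library left out. The causes were not tested. Its log2 fold change was 0.53 to 0.66 (adjusted p 0.00509 to 0.0520 in limma) over the 30 such fits. With a pseudocount of 2, upper-quartile scaling and log10 depth as a covariate it remained called. Library totals alone shifted the median log2 fold change of all miRNAs to 0.21 and turned miR-11971 (0.027), miR-11977 (0.14) and miR-11986b (0.00279), none of them called. With the titles the sign turned for miR-11977 (0.18), miR-11982 (-0.15), miR-11986b (0.20), miR-11986c (-0.024), miR-11989 (-0.12), miR-11991 (-0.069), miR-11992 (-0.038) and miR-11995 (-0.013), and in the libraries with agreeing labels for miR-11977 (0.21), miR-11986b (0.075) and miR-11991 (-0.039). With 1 library left out, miR-11977 ranged from -0.055 to 0.042, miR-11991 from -0.012 to 0.082, miR-11986b from -0.20 (without High replicate 4) to -0.055 (without High replicate 2) and miR-11992 from 0.017 (without Moderate replicate 12) to 0.14 (without High replicate 15). miR-11986b was also at -0.35 in the libraries under 12 M reads and -0.045 in edgeR. None of these 4 was called in any of the fits. No member, and no other miRNA tested, passed the threshold in Fisher's exact test of detection under any of the 35 alternatives. miRNAs seen in few or in nearly all libraries could not have passed that test. The summed value of members was 29.3 without Moderate replicate 5 and 30.3 in CPM without TMM scaling. No paired analysis was possible because the labels give no replicate numbers shared between diets. Depth limits members with a mean value under 1, which had at most 9.1 reads per library on average. Single libraries held more, up to 29 reads of miR-12006 in Moderate replicate 9.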

Other observations

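Moderate replicate 5 held the highest summed value of the 81 members on the TMM scale, 41.7, and the lowest in CPM without TMM scaling, 9.87, against 22.7 to 41.2 in the other 29 libraries. In this library 8 of the 81 members had their highest value of all libraries: miR-11971, miR-11990, miR-11998, miR-11988, miR-12057, miR-11994, miR-11997 and miR-12058. The last 3 stood at 0.476, the value of a single read there. Of the 13 members above 0 in every library, 3 were highest and 2 lowest in it.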
